A study of Mus musculus with 46 samples.

Results

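The RNA of AgRP neurons from fasted mice was compared with that from fed mice in 7 of the 46 samples of the series. Another 4 samples, from fasted mice of the same model given leptin in place of the vehicle, entered the same model of 11 libraries and its estimate of the spread but are not described here. The 7 are all libraries whose count column was labelled as AgRP-positive and either fasted or fed. The mice were NuTRAP AgRP males aged 6 to 11 weeks, in which the Cre recombinase of the AgRP-IRES-Cre allele switches on a GFP-tagged L10a ribosomal subunit. RNA bound to the tagged ribosomes of the arcuate nucleus was isolated by affinity purification (TRAP) and sequenced. Fed mice (n = 3 samples) ate ad libitum and fasted mice (n = 4 samples) went without food overnight. Both groups received PBS as a vehicle injection, in the early light phase, and the tissue was taken 3 hours later. Each sample pooled the arcuate nuclei of 4 mice, so that the spread between samples is one between pools and not between single animals. The fed samples carry the replicate numbers 1, 3 and 4, and fed replicate 2 was not analysed here. Reads come from any cell in which the Cre was active and from other cells in so far as untagged RNA was carried along. In such samples, fewer cells of a type and less RNA per cell cannot be told apart.

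AgRP neurons are GABAergic neurons of the arcuate nucleus that drive feeding when energy stores fall. They release AgRP, which blocks melanocortin receptors, and NPY, and they are restrained by leptin acting through the leptin receptor and STAT3. Peptides such as these are made as precursors that cross into the endoplasmic reticulum (ER), are folded and glycosylated there, travel in coated vesicles to the Golgi and are cut inside dense core vesicles.

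Each of the 7 libraries held between 25581041 and 49641033 counted reads. Levels are given as CPM, the count scaled to a common library total, after TMM scaling, which sets the libraries to a common scale from the bulk of their genes. Values of single libraries follow the order of the replicate numbers, 1, 3 and 4 for fed and 1 to 4 for fasted samples, and means are given ± SD (n = 3 fed and n = 4 fasted). The neurons' own markers were abundant, with the 12 AgRP neuron markers summing to between 2091 and 2931 CPM in fed and between 3536 and 7121 CPM in fasted libraries, whereas 5 POMC neuron markers summed to between 68.1 and 94.2 CPM. The AgRP neuron sums include Agrp and Npy, which were themselves higher in every fasted than in every fed library. Their difference between the states is therefore no measure of how pure the libraries were. The fed and the fasted library numbered 4 stood apart from the other 5. Slc1a2, the main glutamate transporter of astrocytes, took 1.93% and 2.34% of their counts and between 0.240% and 0.433% in the others. The 10 astrocyte markers, Slc1a2 among them, summed to 21989 and 28618 CPM there against 3128 to 4909 CPM. Slc1a2 alone gave 27272.9 of the 28618 CPM in fasted replicate 4, so that these sums mostly follow that single gene. The sums of the other marker lists, in fed against fasted libraries, were 614 to 947 against 545 to 884 CPM for oligodendrocytes, 57.4 to 94.2 against 49.2 to 94.8 CPM for their precursors, 24.7 to 44.5 against 19.1 to 43.7 CPM for microglia, 127 to 151 against 91.6 to 192 CPM for endothelium, 80.0 to 99.9 against 66.0 to 86.2 CPM for mural cells and fibroblasts, 164 to 236 against 163 to 286 CPM for tanycytes and ependyma, 506 to 674 against 530.1 to 719 CPM for other arcuate neurons, and 4.11 to 5.51 against 2.90 to 7.57 CPM for pituitary and blood. No marker of a cell type other than neurons was called in the comparison below, though all 6 microglial and all 6 oligodendrocyte precursor markers tested were lower in fasted libraries (median log2 fold change -0.59 and -0.31), and with the replicate number as a block 2 microglial, 2 oligodendrocyte, 1 astrocyte and 1 mural or fibroblast marker were repressed. The part of these cells in the results was not tested. Counts of several lists are given with and without the number 4 libraries, and named genes whose calls were lost without them are listed near the end.

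The first question was which genes changed with the fast. Of the 13401 genes with a mean over 1 CPM, those that passed edgeR's quasi-likelihood test at a Benjamini-Hochberg adjusted p (FDR) below 0.05, and moved by more than 0.5 on the log2 scale, are called induced or repressed. Induced genes made up 2.82% and repressed genes 1.07% of those tested. Counts of calls in the gene lists below are to be read beside these shares. With the replicate number as a block in the model, the shares were 4.4% and 2.54%. The increases were the larger changes: the median log2 fold change was 0.83 among the induced and -0.70 among the repressed genes, and 135 induced but 28 repressed genes changed by more than 1 on the log2 scale. All 4 fasted libraries lay above all 3 fed libraries in 376 of the 378 induced genes, a pattern that 11.6% of all genes tested showed, and below them in all 143 repressed genes, against 6.69% of all genes. The calls were made from these same values, so that the pattern is no separate evidence for them. Without the fed, fasted and leptin libraries numbered 4, 404 genes were induced and 305 repressed. Of the fits that left out 1 library, the one without fed replicate 4 gave the fewest induced genes, 202, and the one without fed replicate 1 the fewest repressed genes, 68. Scaling by library size alone gave 148 induced and 90 repressed genes.

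**Figure D1:**
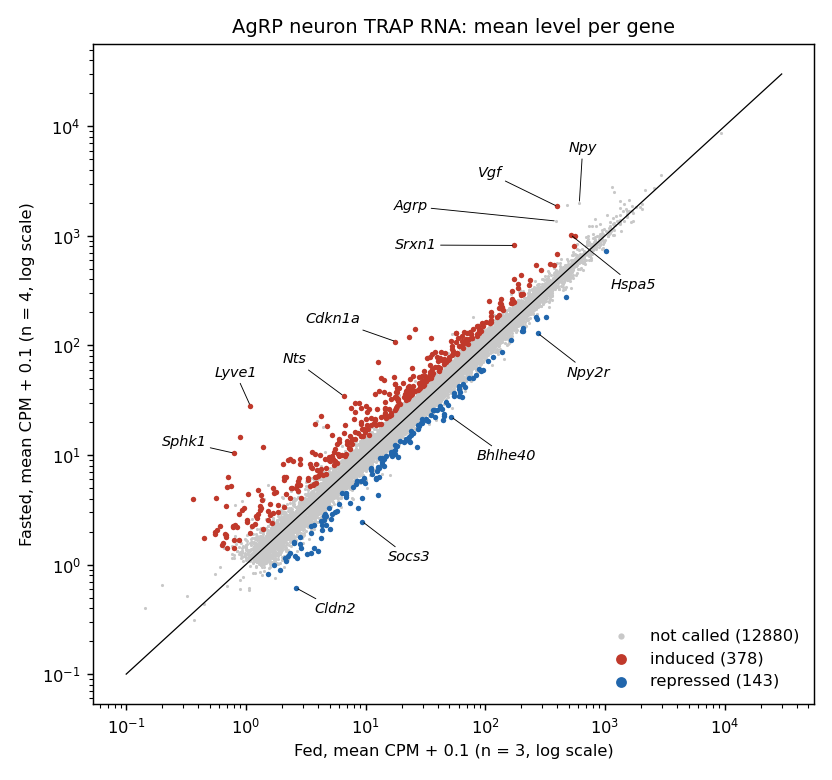
Mean level of each gene in fed (x axis, n = 3) and fasted (y axis, n = 4) AgRP neuron libraries, in CPM plus 0.1 on log scales, with induced genes in red, repressed genes in blue and the line of equal levels in black. Red points lie up to 27.5-fold above the line (Lyve1) and are found at low and high levels, while blue points stay closer to the line.

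In 32 lists of genes with a known role, 1247 genes were tested, of which 80 were induced and 20 repressed. Glucocorticoid-responsive genes and ER chaperones held the highest medians, and cadherins and axon guidance genes the lowest. Over all genes tested the median log2 fold change was 0.02, with 7112 genes higher and 6289 lower in fasted libraries.

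**Figure D2:**
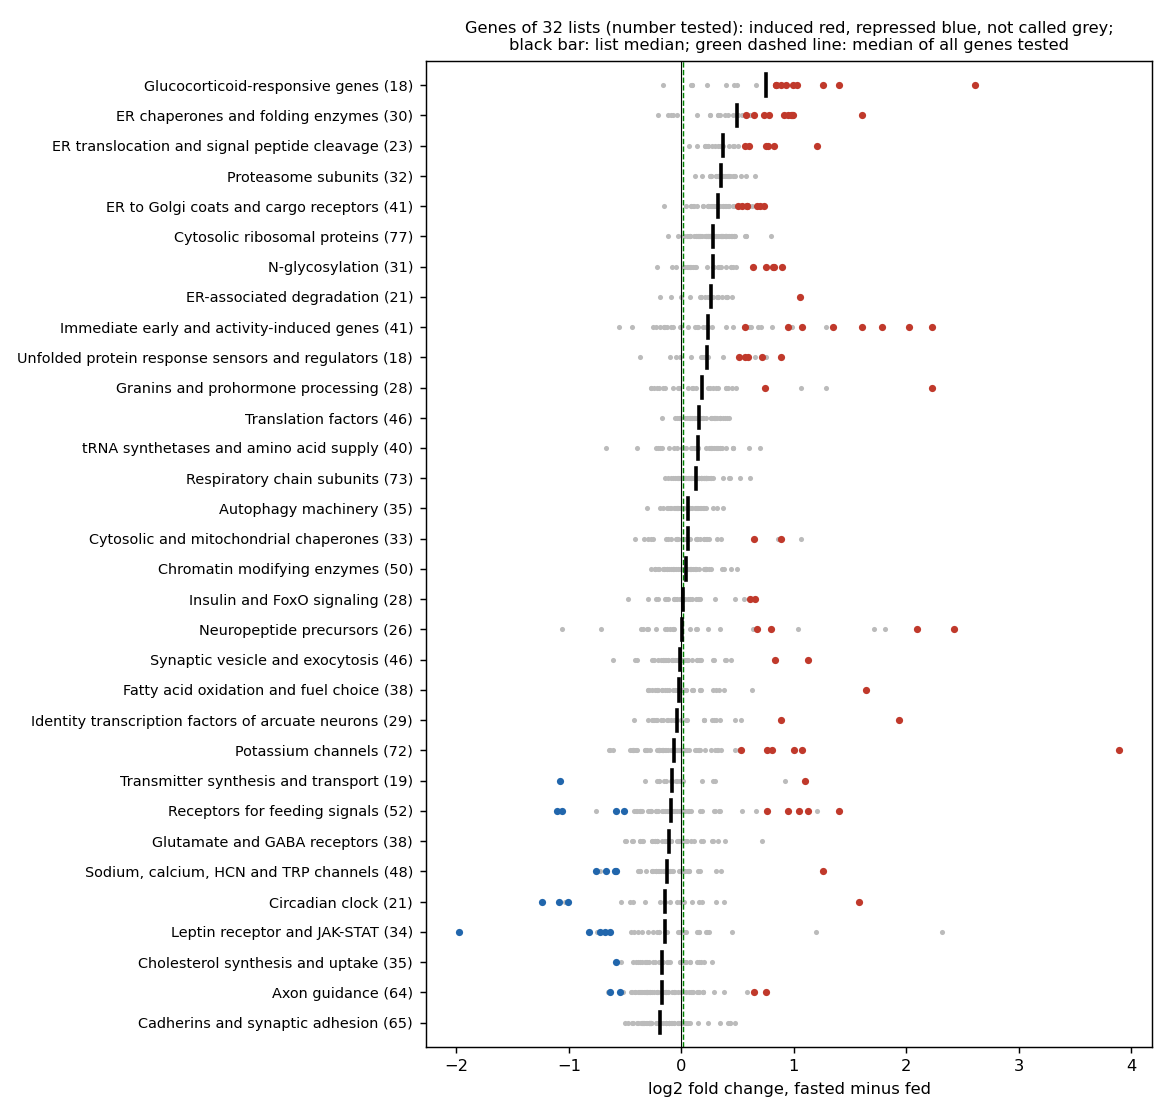
Log2 fold change (fasted minus fed, x axis) of each tested gene in 32 lists, ordered by their median (black bars), with induced genes in red, repressed genes in blue and uncalled genes in grey. The medians run from -0.19 (cadherins and synaptic adhesion) to 0.75 (glucocorticoid-responsive genes), beside 0.02 for all genes tested (green dashed line).

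Genes for the machinery that folds and exports secreted proteins were mostly at higher levels in the fasted libraries. Across 5 lists of the ER and its export route (chaperones and folding enzymes, translocation, N-glycosylation, vesicle coats and cargo receptors, and ER-associated degradation), 29 of 146 different genes tested were induced and 0 repressed. Of the 146, 135 were higher in the fasted libraries, 83 had every fasted library above every fed library, and the median log2 fold change was 0.33. Over all 13401 genes tested, 2.82% were induced, 1.07% were repressed and 7112 genes were higher. Every fasted library lay above every fed library in 11.6% of them. With the replicate block 39 were induced. With each library left out in turn the chaperone list kept between 6 and 11 induced genes, the fewest without fasted replicate 3, fed replicate 1 or fed replicate 4. Scaling by library size alone gave 3, and 1 each for translocation, N-glycosylation and coats, while 11 chaperone genes were called without the number 4 libraries.

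Among ER chaperones and folding enzymes, 10 of 30 were induced (33.3%) and 25 were higher, with a median of 0.50. Hspa5, on chromosome 2 from 34771970 to 34777547 of GRCm38 (the build of all positions here), codes for BiP, the Hsp70 chaperone of the ER that also holds the stress sensors inactive. It stood at 487, 574 and 496 CPM in fed and 974, 1015, 1210.5 and 873 CPM in fasted libraries. The lowest fasted library lay 298 CPM above the highest fed library. The increase was 1.96-fold (log2 fold change 0.97, SE 0.16, FDR = 0.00541). Hyou1, a large Hsp70-like exchange factor of BiP (395 ± 26.6 against 679 ± 85.6 CPM; log2 fold change 0.78, SE 0.14, FDR = 0.00830), and Manf, a small ER protein that is secreted when ER calcium falls, rose beside it. Manf, on chromosome 9 from 106838312 to 106891979, was at 56.7, 63.4 and 56.3 CPM in fed and 118, 99.9, 128 and 122 CPM in fasted libraries. Its libraries were tight within each group and far apart between them (log2 fold change 0.99, SE 0.12, FDR = 0.00144). The protein disulfide isomerases, which make and shuffle disulfide bonds, gave 5 of the 10 calls. P4hb rose from 167 ± 16.6 CPM in fed to 316 ± 40.6 CPM in fasted libraries (log2 fold change 0.92, SE 0.14, FDR = 0.00414) and Pdia6 from 136 ± 19.1 CPM in fed to 268 ± 40.1 CPM in fasted libraries (log2 fold change 0.98, SE 0.17, FDR = 0.00706), followed by Txndc5 (0.58, FDR = 0.00629), Pdia3 (0.74, FDR = 0.0249) and the scarce Pdia5 (0.95, FDR = 0.0165). The prolyl isomerases Fkbp11 (1.61, FDR = 0.0165) and Fkbp14 (0.65, FDR = 0.0310) completed the set. The lectin chaperones were not called: Calr, which binds glycoproteins in the lumen, was higher by 0.59 on the log2 scale (FDR = 0.0538), and its membrane-bound relative Canx by 0.25 (FDR = 0.407). Calr was called with the replicate block (FDR = 0.000761), without fasted replicate 4 and without all number 4 libraries. Neither was Hsp90b1, the Hsp90 of the ER (0.49, FDR = 0.0932). The calls of Hspa5, Hyou1, Manf, P4hb, Pdia6 and Txndc5 stood in all 7 fits that left out 1 library. Those of Pdia3, Pdia5, Fkbp11 and Fkbp14 were lost in 5, 4, 4 and 6 of them, always without fasted replicate 3 and fed replicates 1 and 4 among others, with FDR up to 0.139 (Fkbp14 without fed replicate 4).

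The promoters of these genes are shown because ER chaperone genes are the textbook targets of the ER stress element, CCAAT followed by 9 bases and CCACG. The 250 bases before the start were searched on both strands in the RefSeq sequence (GRCm38.p6), which held 24 of the 30 chaperone list genes and 9914 of all genes tested. The element stood in 7 of the 24 (29.2%), in 14 of the 9914 (0.141%), in 3 of 272 induced genes with a sequence (1.1%) and in 0 of 98 repressed genes. The 7 are given 5′ to 3′ on the gene's strand with the match in capitals and 30 bases on each side, except that of Hspa5, where the flanks lie in a GENCODE UTR and the match is given alone. Hspa5 and Pdia6 were induced, and the other 5 were not called.
Hspa5: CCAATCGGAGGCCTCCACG
Pdia6: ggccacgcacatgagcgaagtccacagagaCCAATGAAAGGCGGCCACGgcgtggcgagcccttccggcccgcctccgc
Hsp90b1: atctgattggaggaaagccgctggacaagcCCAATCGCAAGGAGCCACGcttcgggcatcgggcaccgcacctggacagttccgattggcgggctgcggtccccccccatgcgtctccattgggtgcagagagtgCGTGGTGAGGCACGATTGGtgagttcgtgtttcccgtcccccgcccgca
Creld2: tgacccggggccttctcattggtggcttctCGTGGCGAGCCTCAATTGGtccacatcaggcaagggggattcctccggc
Dnajc3: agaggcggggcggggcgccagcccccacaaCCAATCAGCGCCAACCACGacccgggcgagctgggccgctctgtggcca
Calr: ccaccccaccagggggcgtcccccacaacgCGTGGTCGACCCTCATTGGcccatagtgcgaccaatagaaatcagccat
Canx: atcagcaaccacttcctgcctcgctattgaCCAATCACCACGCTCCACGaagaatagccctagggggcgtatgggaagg
Counted from RefSeq gene starts (the Hspa5 match lies inside the longer GENCODE gene), these stretches are at chr2:34772025-34772043 (plus strand) for Hspa5, chr12:17266461-17266539 (plus strand) for Pdia6, chr10:86705503-86705686 (minus strand) for Hsp90b1, chr15:88819490-88819568 (plus strand) for Creld2, chr14:118937797-118937875 (plus strand) for Dnajc3, chr8:84847045-84847123 (minus strand) for Calr and chr11:50325770-50325848 (minus strand) for Canx. Hsp90b1 held 2 matches in opposite directions and its stretch spans both, and the matches of Creld2 and Calr read on the opposite strand. The log2 fold changes of the 5 uncalled genes with the element ran from 0.25 (Canx) to 0.59 (Calr), with 0.50 for Creld2 and 0.42 for Dnajc3 (FDR = 0.0502). A match is a description of the letters and not a measured binding site.

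Of 18 sensors and regulators of the unfolded protein response, 5 were induced (27.8%), 14 were higher and the median was 0.23, and scaling by library size alone left 2 calls. Ern1, on chromosome 11 from 106394650 to 106487852, codes for IRE1α, the sensor that splices Xbp1 mRNA, and was at 36.6, 37.6 and 33.8 CPM in fed and 54.3, 47.7, 56.7 and 53.9 CPM in fasted libraries. The groups did not overlap (log2 fold change 0.56, SE 0.09, FDR = 0.00414). The other sensors were not called, with a log2 fold change of 0.24 for Atf6 (FDR = 0.325) and -0.05 for Eif2ak3, which codes for PERK (FDR = 0.870). Atf4, the transcription factor whose translation rises when PERK and other kinases phosphorylate eIF2α, rose from 49.9 ± 3.28 CPM in fed to 75.2 ± 4.49 CPM in fasted libraries (log2 fold change 0.59, SE 0.10, FDR = 0.00820). Ddit3, which codes for CHOP, a factor of prolonged ER stress, was at 22.98, 14.5 and 11.99 CPM in fed and 15.6, 12.3, 13.8 and 9.33 CPM in fasted libraries and was not called (FDR = 0.499). Its groups overlapped, with the highest value in fed replicate 1. Total Xbp1 RNA was not called either (0.37, FDR = 0.0554), and the counts do not tell its spliced from its unspliced form. Creb3l2 (0.71, FDR = 0.0165) and Creb3l1 (0.51, FDR = 0.0451), ER membrane-bound transcription factors of secretory cells, rose, as did the mTORC1 inhibitor Ddit4 (0.88, FDR = 0.00301). The call of Ern1 was lost without fed replicate 4 (log2 fold change 0.497) and that of Atf4 without fed replicate 1 (FDR = 0.0506). Creb3l2 was lost in 4 fits (without fasted replicate 3 and each fed library, FDR up to 0.0760) and Creb3l1 in all 7, while Ddit4 was kept in all.

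Along the path into and out of the ER, each stage held induced genes. Translocation gave 6 of 23 (26.1%), with all 23 higher. Sec61b, on chromosome 4 from 47474658 to 47483242, codes for the β subunit of the channel through which nascent chains enter the ER, and was at 14.5, 16.8 and 15.4 CPM in fed and 29.5, 34.5, 42.5 and 37.6 CPM in fasted libraries. Every fasted library was above every fed one (log2 fold change 1.21, SE 0.16, FDR = 0.00212). Its partners Sec61a1 (0.61, FDR = 0.0242) and Tram1 (0.77, FDR = 0.00301) and the translocon-associated Ssr1 (0.57), Ssr2 (0.75) and Ssr4 (0.82) rose as well, with calls lost in 2 to 5 of the 7 fits for each of these but Tram1. In N-glycosylation, all 5 calls fell on the oligosaccharyltransferase, which moves the finished sugar tree onto the chain. Of its 10 subunits tested all were higher, with a median of 0.54, and Ostc, Krtcap2, Stt3b, Rpn1 and Ddost were induced by 0.63 to 0.89 on the log2 scale. Ostc, an accessory subunit, went from 74.3 ± 10.1 CPM in fed to 132 ± 11.3 CPM in fasted libraries (log2 fold change 0.83, SE 0.13, FDR = 0.00458). None of the 15 genes tested that build the sugar tree on dolichol was called, and their median was 0.08.

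Among the coats and cargo receptors 7 of 41 were induced (17.1%) and 40 were higher. Surf4, a receptor that loads soluble cargo into COPII vesicles, went from 138 ± 9.72 CPM in fed to 224 ± 20.4 CPM in fasted libraries (log2 fold change 0.70, SE 0.10, FDR = 0.00328). The COPII coat genes Sec13 (0.73), Sec23b (0.67) and Sec24d (0.58), the cargo receptors Lman1 (0.50) and Tmed2 (0.54) and the retrieval receptor Kdelr2 (0.59) completed the group. No subunit of the COPI coat, which carries proteins back, was called. Of 21 genes of ER-associated degradation 19 were higher and 1, Edem2, on chromosome 2 from 155701677 to 155729475, was induced. It codes for a mannosidase-like protein that marks misfolded glycoproteins for disposal, and it was at 17.3, 20.3 and 16.8 CPM in fed and 43.1, 33.3, 42.01 and 32.8 CPM in fasted libraries (log2 fold change 1.06, SE 0.14, FDR = 0.00235). Its fasted libraries numbered 2 and 4 lay lower than those numbered 1 and 3 but above every fed library. The calls of Sec61b, Tram1, Ostc, Krtcap2, Surf4 and Edem2 stood in all 7 fits that left out 1 library. In the same fits translocation kept 2 to 8 calls, N-glycosylation 2 to 6, and coats and receptors 1 to 7, the fewest without fed replicate 4 in each of the 3 lists. Leaving out fed replicate 1 gave 2 for translocation as well, and leaving out it or fasted replicate 1 or 3 gave 1 for coats and receptors.

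**Figure D3:**
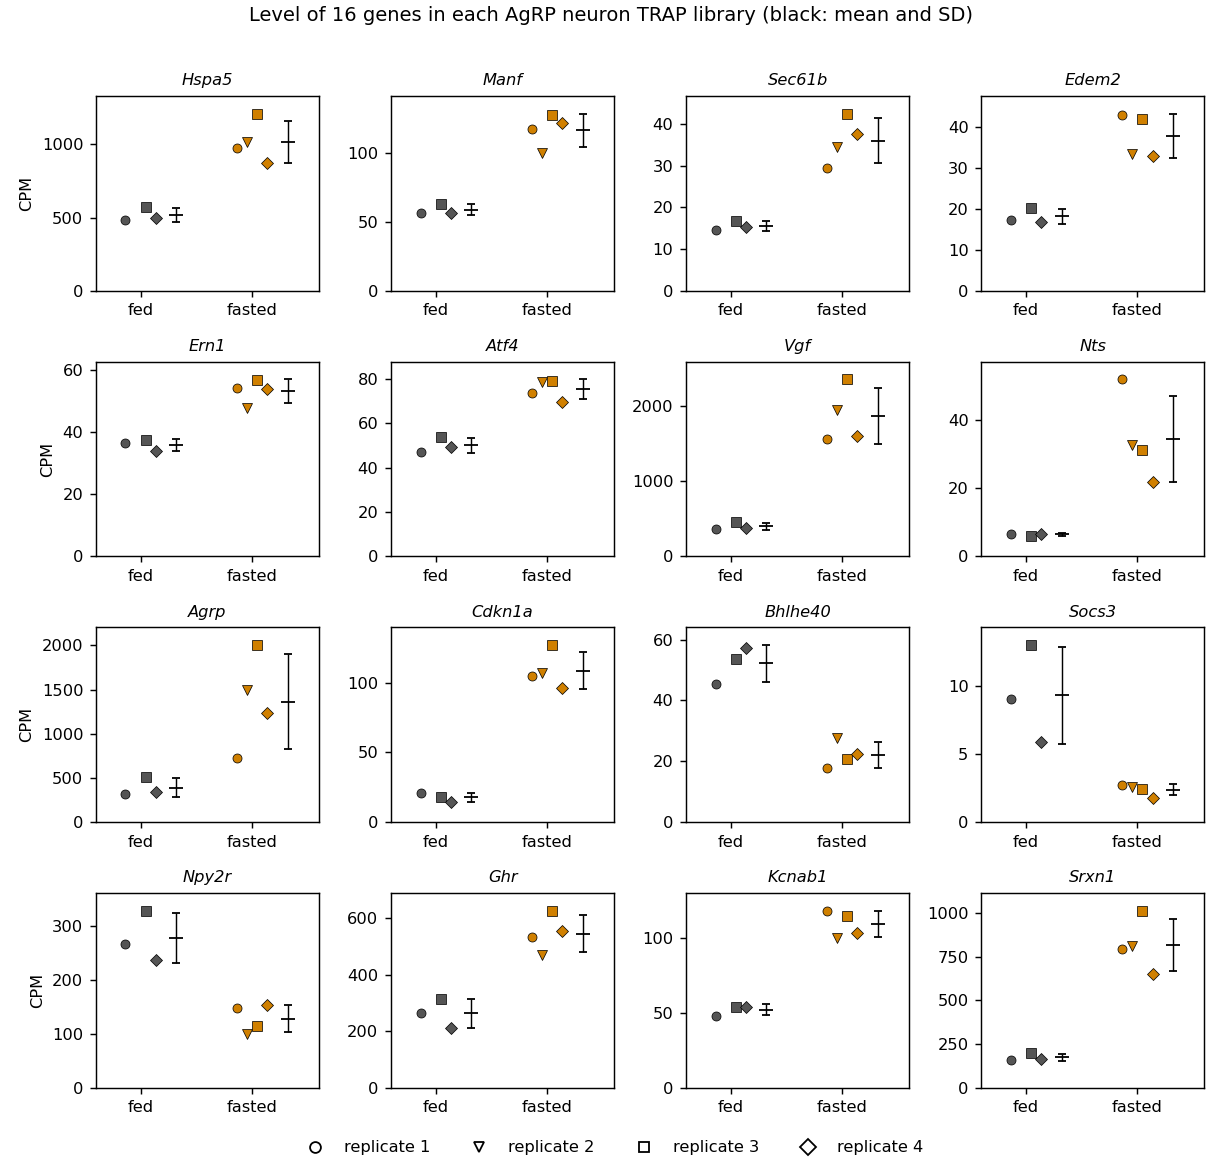
Level in CPM (y axes, from 0) of 16 genes in each fed (grey) and fasted (orange) library, with a symbol for each replicate number and the mean ± SD in black. In all 16 genes the 4 fasted libraries lie on one side of the 3 fed libraries, also in Agrp, which was not called in the fit of all 11 libraries without the replicate block.

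Cytosolic protein synthesis and energy metabolism did not show such calls. No gene was called among 77 ribosomal proteins of the cytosol, 46 translation factors, 40 tRNA synthetases and genes of amino acid supply, 32 proteasome subunits and 73 respiratory chain subunits. By edgeR's test with the replicate block, 2 ribosomal protein genes, 2 of the tRNA and amino acid list and 2 proteasome genes were induced and 1 of the tRNA and amino acid list was repressed, and DESeq2 called 2 proteasome genes and 0 in the other 4 lists. Without fasted replicate 4, one of the libraries that stood apart, 3 proteasome genes and 3 of the tRNA and amino acid list were induced, and without all number 4 libraries 2 and 1. Their medians were 0.28, 0.16, 0.15, 0.36 and 0.13, and all 32 proteasome subunits were higher. The ribosomal protein genes varied with the replicate number. Relative to the fed mean, their median level was -0.72, 0.35 and 0.16 in fed replicates 1, 3 and 4 and -0.49, 0.43, 0.54 and 0.43 in fasted replicates 1 to 4 on the log2 scale. Both number 1 libraries lay far below all others, and within each number present in both states the fasted library was the higher. Only 1 of the 77 genes had all fasted above all fed libraries, against 11.6% of all genes tested. Removing single libraries moved the median of the list between 0.04 and 0.53. Chaperones of the cytosol and mitochondria gave 2 calls of 33 (4 with the block), the small heat shock protein Hspb8 (0.65, FDR = 0.0205) and Dnajb5 (0.88, FDR = 0.00462), of which Hspb8 was lost in 4 of the 7 fits (FDR up to 0.102 without fed replicate 4). No gene was called among 35 autophagy genes (0 with the block and 0 by DESeq2).

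**Figure D4:**
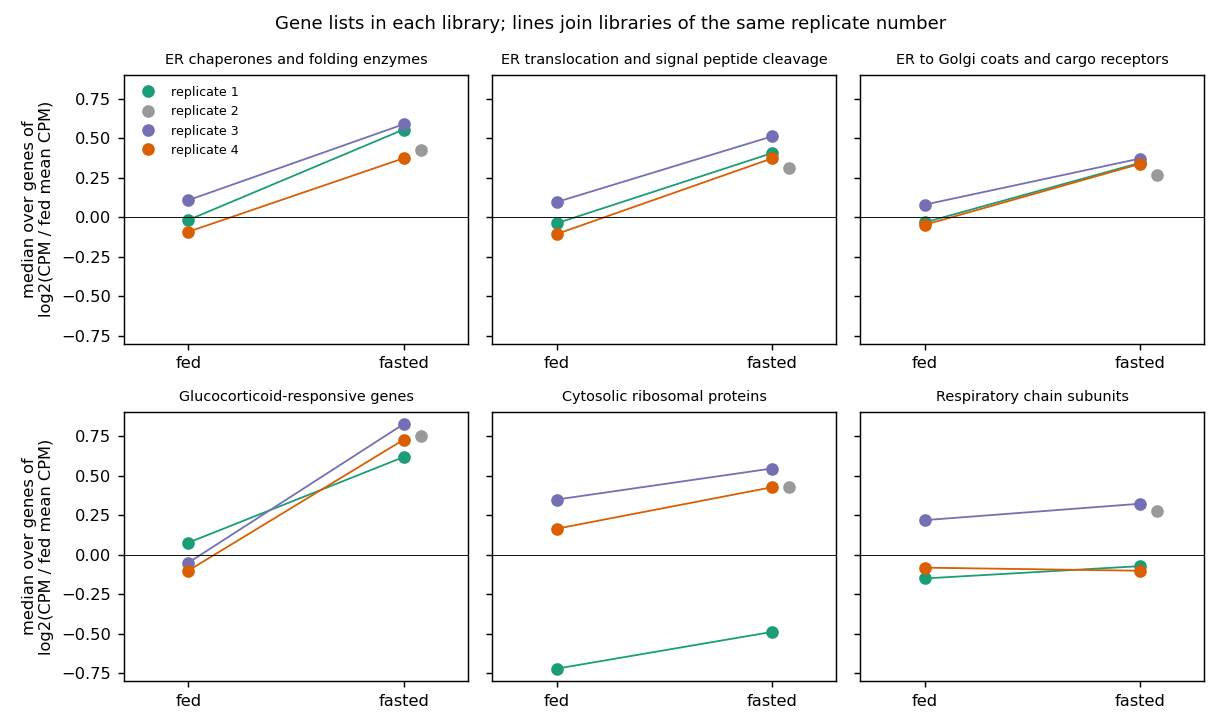
Median over the genes of 6 lists of the log2 ratio of a library's CPM to the fed mean (y axis) in fed and fasted libraries (x axis), with lines joining libraries of the same replicate number and fasted replicate 2 unjoined. In the 3 secretory lists and the glucocorticoid-responsive genes the fasted points lie above all fed points, whereas in ribosomal protein genes both replicate 1 libraries lie at -0.72 and -0.49 and all others above 0.

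The cargo of this pathway changed for single peptides. Of 26 neuropeptide precursor genes 4 were induced (15.4%), 0 repressed and the median was 0.00. The replicate block gave 8 and 2, and without the number 4 libraries 5 and 1, and scaling by library size alone 2 and 0. Nts, on chromosome 10 from 102481756 to 102490486, the precursor of neurotensin, was at 6.64, 6.02 and 6.68 CPM in fed and 52.02, 32.9, 31.3 and 21.9 CPM in fasted libraries. The fed libraries were within 1 CPM of each other and every fasted library lay at least 3-fold higher (log2 fold change 2.42, SE 0.38, FDR = 0.00462). Nmb, which codes for the bombesin-like neuromedin B, went from 1.93 ± 0.148 CPM in fed to 8.21 ± 1.86 CPM in fasted libraries (log2 fold change 2.09, SE 0.29, FDR = 0.00243). Pdyn, the precursor of dynorphin, was more abundant and rose less, from 68.7 ± 4.401 CPM in fed to 109 ± 11.5 CPM in fasted libraries (log2 fold change 0.67, SE 0.10, FDR = 0.00427). It is also on the marker list of other arcuate neurons, where it was the single call among 11 genes (2 induced and 1 repressed with the block). Nucb2, the precursor of nesfatin, rose by 0.80 (FDR = 0.0326), a call absent from 5 of the 7 fits with a library removed (without fasted replicates 1, 2 and 3 and fed replicates 1 and 4, FDR up to 0.156).

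The defining peptides of these neurons varied more between libraries. Agrp was at 314, 515 and 342 CPM in fed and 726, 1496, 2004 and 1233 CPM in fasted libraries. Every fasted library was above every fed one, and the number 3 library was the highest in both states. It was not called in the fit of all 11 libraries without the block (FDR = 0.0524), and it was called with the block (FDR = 8.7e-05), in the 7 libraries alone, by DESeq2 and without fasted replicate 1. The other fits that left out 1 library did not call Agrp (FDR up to 0.190 without fed replicate 4). Nor did the fit without the number 4 libraries (FDR = 0.110) or with scaling by library size alone (FDR = 0.0597). Npy was at 369, 804 and 661 CPM in fed and 870, 1925, 2996 and 2205 CPM in fasted libraries. Its lowest fasted library lay 65.4 CPM above the highest fed one. Npy was called with the block (FDR = 0.000116) and by DESeq2 (FDR = 0.0226), but not without the block (FDR = 0.113). None of the 7 fits that left out 1 library called Npy (FDR up to 0.326 without fed replicate 1). The fit without the number 4 libraries did not either (FDR = 0.182). Scg2, the precursor of secretoneurin and an abundant dense core vesicle protein, was at 934, 1477 and 1034 CPM in fed and 1985, 3231, 3704 and 2298 CPM in fasted libraries. It showed the same pattern as Agrp, with an FDR of 0.0520 without and 6.5e-06 with the block, and it was called without fasted replicate 4. The other fits that left out 1 library did not call Scg2 (FDR up to 0.190 without fed replicate 4), nor did the fit without the number 4 libraries (FDR = 0.0818). Among granins and processing enzymes 2 of 28 were induced, Vgf and Pcsk1, and 4 with the block. Pcsk1 codes for the convertase that makes the first cuts in most of these precursors, and it rose from 131 ± 5.41 CPM in fed to 219 ± 25.8 CPM in fasted libraries (log2 fold change 0.74, SE 0.12, FDR = 0.00512), a call made in all 7 fits without 1 library. Of the 12 AgRP neuron markers none was called by edgeR in the fit of all 11 libraries without the block, and with the block 7 were induced and 1 was repressed. DESeq2 called 4 induced and 1 repressed, and 1 of each was called without the number 4 libraries.

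Glucocorticoid-responsive genes had the highest median of all lists, 0.75. Corticosterone, the adrenal hormone that rises in a fast, acts through the glucocorticoid receptor on genes such as these in many tissues. Of 18 tested 9 were induced (50.0%), 0 repressed and 17 were higher, while scaling by library size alone gave 4 induced. Cdkn1a, on chromosome 17 from 29090976 to 29100727, codes for the cell cycle inhibitor p21, and was at 20.8, 17.7 and 14.5 CPM in fed and 105, 107, 127 and 95.8 CPM in fasted libraries. The lowest fasted value was 4.601 times the highest fed value (log2 fold change 2.61, SE 0.18, FDR = 0.000139). Sgk1, a kinase that regulates ion transport, was at 56.2, 55.6 and 78.2 CPM in fed and 124, 117, 117 and 123 CPM in fasted libraries, with the fasted libraries within 7.11 CPM of each other (log2 fold change 0.93, SE 0.13, FDR = 0.00244). Errfi1, which inhibits the EGF receptor, went from 66.1 ± 5.005 CPM in fed to 132 ± 4.51 CPM in fasted libraries (log2 fold change 0.99, SE 0.11, FDR = 0.00107). Fkbp5, the cochaperone that limits the receptor's own hormone binding (0.84, FDR = 0.0324), Sult1a1, a sulfotransferase (1.03, FDR = 0.0117), Plin4, a lipid droplet coat protein (1.40, FDR = 0.0167), the metal-binding Mt2 (1.26, FDR = 0.0375), the glycerol phosphate dehydrogenase Gpd1 (0.84, FDR = 0.0266) and Ddit4 made up the rest. Tsc22d3, which codes for GILZ and is a standard readout of the receptor, was at 61.3, 67.2 and 55.3 CPM in fed and 50.4, 57.9, 52.1 and 58.2 CPM in fasted libraries and was not called (-0.16, FDR = 0.454). Its groups overlapped. Between 5 and 10 genes of the list were called with 1 library left out, the fewest without fasted replicate 3 or fed replicate 3 or fed replicate 4, and 8 without the number 4 libraries. Calls of Fkbp5, Gpd1 and Mt2 were lost in 5, 5 and 6 of the 7 fits, with the highest FDR 0.147 for Mt2 without fed replicate 4, and those of Sult1a1 and Plin4 in 2 each, with the highest FDR 0.0697 for Plin4 without fed replicate 3.

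Calls among hormone and fuel genes outside that list fell on single genes. Over all genes tested, 2.82% were induced and 1.07% repressed. In insulin and FoxO signaling 2 of 28 were induced (4 with the block), Cited2 (0.65, FDR = 0.00772) and Trib1 (0.61, FDR = 0.0425). The insulin receptor Insr was at 0.08 on the log2 scale of change (FDR = 0.798). Cited2 was lost without fed replicate 4 (FDR = 0.0527), and Trib1 was called in none of the 7 fits with a library removed. In fatty acid oxidation and fuel choice 1 of 38 was induced (2 with the block), Angptl4, an inhibitor of lipoprotein lipase that is induced by fasting in many tissues. It went from 1.98 ± 0.331 CPM in fed to 6.15 ± 1.47 CPM in fasted libraries (log2 fold change 1.64, SE 0.21, FDR = 0.00198). Of 35 cholesterol genes 24 were lower, and the single call was Stard4, a sterol carrier (-0.58, FDR = 0.00574; 2 repressed with the block).

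Clock genes were mostly lower. Of 21 tested 3 were repressed (14.3%), 1 induced and 14 were lower, with a median of -0.15. Bhlhe40, on chromosome 6 from 108660629 to 108666925, codes for the E-box repressor DEC1, and was at 45.5, 53.7 and 57.3 CPM in fed and 17.7, 27.6, 20.7 and 22.3 CPM in fasted libraries (log2 fold change -1.24, SE 0.17, FDR = 0.00212). The period genes Per3 (45.5 ± 6.996 against 22.7 ± 2.75 CPM; log2 fold change -1.01, SE 0.14, FDR = 0.00270) and Per2 (44.1 ± 18.6 against 20.8 ± 2.58 CPM; log2 fold change -1.08, SE 0.23, FDR = 0.0199), repressors of the core loop, fell too. Fed replicate 3 held 65.6 CPM of Per2 against 33.5 and 33.2 CPM in the other fed libraries. Nfil3, a repressor of the clock's output, was the induced member (1.58, FDR = 0.000594). The replicate block repressed 5 genes of the list. The call of Per2 was lost without fasted replicate 1 (FDR = 0.0625) and without fasted replicate 3. Without the number 4 libraries 5 were repressed as well. Both groups were sampled in the same phase of the day per the study's methods, and the hour of each sample is not given in the sources used here.

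Genes driven by neuronal activity rose in part. Of 41 immediate early and activity-induced genes 8 were induced (19.5%) and 0 repressed, with the block 16 and 1, and without the number 4 libraries 13 and 0. Beyond the classic transcription factors, the MAP kinase phosphatase Dusp5 was at 1.13, 1.05 and 1.295 CPM in fed and 5.34, 4.88, 4.07 and 4.57 CPM in fasted libraries (log2 fold change 2.03, SE 0.19, FDR = 0.000664). Its level was low, but the fasted libraries were all at least 3-fold above the fed ones. The antiproliferative Btg2 went from 24.7 ± 1.62 CPM in fed to 51.9 ± 8.37 CPM in fasted libraries (log2 fold change 1.07, SE 0.13, FDR = 0.00155). Both calls stood in all 7 fits that left out 1 library, in which the list kept 5 (without fed replicate 1) to 10 (without fasted replicate 4) induced genes. The cAMP response element TGACGTCA was searched in the same promoters as above, on both strands, and it contains none of the other elements searched. It stood in 17 of 272 induced (6.25%), 3 of 98 repressed (3.06%) and 311 of 9914 tested genes (3.14%). As examples, the matches in 4 induced genes named here are shown with 30 bases on each side.
Btg2: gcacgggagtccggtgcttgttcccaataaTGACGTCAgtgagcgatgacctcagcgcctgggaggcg
Pcsk1: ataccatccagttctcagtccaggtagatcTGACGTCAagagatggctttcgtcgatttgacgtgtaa
Errfi1: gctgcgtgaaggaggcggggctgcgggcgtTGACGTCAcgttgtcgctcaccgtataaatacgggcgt
Gpr6: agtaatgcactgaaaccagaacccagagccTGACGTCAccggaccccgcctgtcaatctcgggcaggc
They lie at chr1:134079284-134079351 (minus strand), chr13:75089749-75089816 (plus strand), chr4:150854989-150855056 (plus strand) and chr10:41072331-41072398 (minus strand) of GRCm38.p6. The stretch of Errfi1 lies before the RefSeq start but inside the longer GENCODE gene. The AP-1 element TGANTCA stood in 9.19% of induced, 5.1% of repressed and 5.08% of all promoters.

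Repressed genes included feedback inhibitors of cytokine receptors. Of 34 genes of the leptin receptor and JAK-STAT list 5 were repressed (14.7%) and 0 induced, with the block 6 and 2, and without the number 4 libraries 7 and 1. Scaling by library size alone, and leaving out fed replicate 1 or 3, each gave 1 repressed gene. Socs3, which blocks signaling at the leptin receptor and is itself a STAT3 target, was at 9.06, 13.00 and 5.89 CPM in fed and 2.72, 2.55, 2.397 and 1.79 CPM in fasted libraries. All fasted libraries lay below 3 CPM and all fed ones above 5 CPM (log2 fold change -1.98, SE 0.25, FDR = 0.00169). Its relatives Cish, a STAT5 target, and Socs1 were lower too. Cish was at 15.9, 13.5 and 7.81 CPM in fed and 6.34, 7.59, 6.88 and 7.39 CPM in fasted libraries, with fed replicate 4 close to the fasted libraries (log2 fold change -0.82, SE 0.19, FDR = 0.0323). Socs1 went from 2.43 ± 0.366 CPM in fed to 1.48 ± 0.116 CPM in fasted libraries (log2 fold change -0.72, SE 0.18, FDR = 0.0450). Irf9, an interferon regulatory factor (-0.68, FDR = 0.0137), and Sbno2, a STAT3-induced corepressor (-0.63, FDR = 0.0167), also fell. The signal carriers themselves were not called, with 0.00 for Stat3 (FDR = 0.998) and -0.25 for Jak2 (FDR = 0.204). The leptin receptor Lepr was at 87.3, 110.0 and 39.1 CPM in fed and 194, 158, 211 and 159 CPM in fasted libraries. Fasted libraries were above all fed libraries, of which number 4 was lowest, and the gene was called induced with the block (FDR = 7.8e-05) and without fed replicate 3 or the number 4 libraries, but not with all libraries and no block (FDR = 0.0522). The other fits that left out 1 library did not call Lepr (FDR up to 0.150 without fasted replicate 3). Socs3 stood in all 7 fits that left out 1 library. Cish was lost in 5 (without fasted replicates 1, 2 and 3 and fed replicates 1 and 3, FDR up to 0.150), Socs1 in all 7, Sbno2 in 4 (without fasted replicates 1 and 3 and fed replicates 1 and 3, FDR up to 0.0667) and Irf9 in 2 (without fed replicates 1 and 3, FDR up to 0.0618). The promoter of Socs3 holds 1 match to the STAT consensus (TTC and GAA with 3 bases between them), in the stretch at chr11:117969482-117969550 (minus strand), which lies before the RefSeq start but inside the GENCODE gene. Such a match stood in 12.2% of repressed, 8.46% of induced and 7.2% of all promoters.
Socs3: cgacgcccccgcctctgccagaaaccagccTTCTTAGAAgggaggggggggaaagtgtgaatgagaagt

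Receptors for feeding signals changed in both directions, with 5 of 52 induced (9.62%) and 4 repressed (7.69%), 6 and 7 without the number 4 libraries, and 4 and 2 with scaling by library size alone. Ghr, on chromosome 15 from 3317760 to 3583492, the growth hormone receptor, was the most abundant of those called, at 263, 314 and 212 CPM in fed and 531, 469, 625 and 553 CPM in fasted libraries (log2 fold change 1.05, SE 0.17, FDR = 0.00496). Every fasted library was above every fed one. Sstr4, a somatostatin receptor, went from 9.04 ± 0.907 CPM in fed to 19.7 ± 2.21 CPM in fasted libraries (log2 fold change 1.12, SE 0.19, FDR = 0.00654), and the constitutively active Gs-coupled receptors Gpr6 (1.40, FDR = 0.00192) and Gpr3 (0.95, FDR = 0.00244) and the orexin receptor Hcrtr2 (0.77, FDR = 0.0160) rose too. In the other direction, Npy2r, on chromosome 3 from 82538383 to 82548084, the Gi-coupled autoreceptor by which NPY and PYY restrain these neurons, was at 266, 328 and 237 CPM in fed and 147, 99.05, 114 and 153 CPM in fasted libraries (log2 fold change -1.11, SE 0.18, FDR = 0.00469). The highest fasted library stayed 84.2 CPM under the lowest fed one. Drd1, the Gs-coupled dopamine receptor, was scarcer, at 13.5, 14.2 and 10.6 CPM in fed and 6.94, 7.17, 4.82 and 5.595 CPM in fasted libraries (log2 fold change -1.06, SE 0.16, FDR = 0.00398). Crhr1, a receptor for corticotropin-releasing hormone (-0.58, FDR = 0.0252), and Ramp1, a partner of calcitonin-family receptors (-0.51, FDR = 0.0290), fell less, and Ramp1 was under the size threshold with the block (-0.48). The ghrelin receptor Ghsr was not called (FDR = 0.0511), and it was called with the block (FDR = 0.000419), by DESeq2 and without fasted replicate 2, the lowest of the fasted libraries at 234 CPM. The other fits that left out 1 library did not call Ghsr (FDR up to 0.197 without fed replicate 4), nor did the fit without the number 4 libraries (FDR = 0.113). Ghr, Sstr4, Gpr6, Gpr3, Npy2r and Drd1 stood in all 7 fits that left out 1 library, Hcrtr2 was lost without fed replicates 3 and 4 (FDR up to 0.0774), and Crhr1 and Ramp1 were each lost in 5 (FDR up to 0.138, Ramp1 without fed replicate 1).

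Ion channels showed single changes of either sign on a background slightly below 0. Of 72 potassium channel genes 6 were induced (8.33%) and 0 repressed, while 46 were lower, with a median of -0.07. Without the number 4 libraries 7 were repressed and 5 induced, the block repressed 2, and scaling by library size alone induced 3. Kcnab1, on chromosome 3 from 65109384 to 65378223, codes for a β subunit that speeds the inactivation of Kv1 channels, and was at 47.7, 53.9 and 54.1 CPM in fed and 118, 100.0, 115 and 103 CPM in fasted libraries. Its lowest fasted library held 1.85 times the highest fed value (log2 fold change 1.07, SE 0.09, FDR = 0.000491). Kcnj4, the inward rectifier Kir2.3, went from 8.04 ± 0.658 CPM in fed to 16.1 ± 0.460 CPM in fasted libraries (log2 fold change 1.00, SE 0.10, FDR = 0.000849). The leak channel Kcnk1 (0.81), the silent subunits Kcnv1 (0.76) and the scarce Kcnv2 (3.90) and the fast Kv3 channel Kcnc2 (0.53) were the others. Calls of these 4 were lost in 3, 1, 2 and 6 of the 7 fits, with FDR up to 0.187 (Kcnc2 without fed replicate 4). Among 48 sodium, calcium, HCN and TRP channels 4 were repressed (8.33%), 1 induced and 35 lower. Trpm2, a calcium-permeable channel gated by ADP-ribose, was at 35.98, 40.1 and 37.1 CPM in fed and 22.4, 26.2, 20.7 and 19.9 CPM in fasted libraries (log2 fold change -0.76, SE 0.10, FDR = 0.00206). The AMPA receptor auxiliary subunit Cacng5 (92.7 ± 1.81 against 58.3 ± 7.27 CPM; FDR = 0.00450), the calcium channel subunit Cacna2d3 (54.5 ± 3.26 against 36.5 ± 3.62 CPM; FDR = 0.00904) and the scarce Trpc7 (-0.59, FDR = 0.0181) fell, and Cacna1s rose from 4.08 ± 0.283 CPM in fed to 9.82 ± 2.22 CPM in fasted libraries (log2 fold change 1.26, SE 0.18, FDR = 0.00295). Trpc7 was lost in 4 of the 7 fits (without fasted replicate 3 and each fed library, FDR up to 0.0725), and the other 4 stood in all.

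Calls in the release machinery and transmitter genes fell on single genes, beside 2.82% induced and 1.07% repressed among all genes tested. Of 46 synaptic vesicle genes 2 were induced (and 1 repressed with the block), the vesicle GTPase Rab3b, from 79.2 ± 7.78 CPM in fed to 142 ± 15.7 CPM in fasted libraries (log2 fold change 0.84, SE 0.12, FDR = 0.00244), and the vesicle protein Sv2c, at 162, 182 and 255 CPM in fed and 369, 334, 448 and 597 CPM in fasted libraries (log2 fold change 1.13, SE 0.23, FDR = 0.0167). Sv2c was highest in the number 4 library of each state, and its call was lost without fasted replicate 3 and without fed replicates 1 and 3 (FDR up to 0.0861). Of 38 glutamate and GABA receptor genes none was called by edgeR with or without the block, and 1 was repressed by DESeq2 and 1 without the number 4 libraries. GABA synthesis and loading were not called either, with -0.09 for Gad1 (FDR = 0.734) and -0.03 for Slc32a1 (FDR = 0.928). The vesicular transporters Slc18a1 for monoamines (2.64 ± 0.334 against 5.68 ± 1.28 CPM; FDR = 0.0202) and Slc17a8 for glutamate (4.22 ± 0.109 against 1.97 ± 0.686 CPM; FDR = 0.0265) moved in opposite directions at low levels, and both calls were lost in 5 of the 7 fits (FDR up to 0.102 for Slc18a1 without fed replicate 4).

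Adhesion and guidance genes leaned the other way from the secretory lists. Of 65 cadherins and synaptic adhesion genes 51 were lower, with a median of -0.19, and 0 were called by edgeR and by DESeq2, while the block repressed 2. Of 64 axon guidance genes 46 were lower (median -0.17), and 2 were induced and 2 repressed, or 3 and 4 with the block. Among all genes tested 2.82% were induced and 1.07% repressed. The membrane-bound ligand Efnb2 (95.6 ± 4.41 against 149 ± 11.8 CPM; FDR = 0.00259) and the repellent Sema3a (0.76, FDR = 0.0275) rose, and the semaphorin coreceptor Plxna3 (87.8 ± 3.12 against 60.2 ± 6.13 CPM; FDR = 0.00403) and the ligand Efnb3 (-0.64, FDR = 0.0468) fell. Efnb3 was at 250.4, 275 and 291 CPM in fed and 159, 152, 155 and 234 CPM in fasted libraries. Fasted replicate 4 stood far above the other fasted libraries, and the call was lost in 6 of the 7 fits, all but the one without that library (FDR up to 0.147). Sema3a was lost in 5 (FDR up to 0.141 without fed replicate 4), and Plxna3 fell under the size threshold without fasted replicate 2. Among 29 identity transcription factors of arcuate neurons, Sox4 (1.93) and Sox11 (0.89), factors of immature neurons, were induced (4 genes with the block), and Sox11 was lost without fed replicate 1 (FDR = 0.0550). None of 50 chromatin modifying enzymes was called (0 by DESeq2 and 1 with the block).

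Several genes outside these lists ranked among the largest or most abundant changes. Srxn1, on chromosome 2 from 152105516 to 152111376, codes for sulfiredoxin, which restores oxidized peroxiredoxins, and was at 160.2, 199 and 164 CPM in fed and 795, 809.7, 1012 and 652 CPM in fasted libraries (log2 fold change 2.23, SE 0.31, FDR = 0.00259). It was among the 10 induced genes with the most reads. Hhip, an inhibitor of hedgehog ligands, went from 25.8 ± 5.02 CPM in fed to 141 ± 30.3 CPM in fasted libraries (log2 fold change 2.44, SE 0.31, FDR = 0.00169), and the growth factor Fgf7 from 0.645 ± 0.411 CPM in fed to 5.07 ± 1.49 CPM in fasted libraries (log2 fold change 2.91, SE 0.44, FDR = 0.00383), with fed replicate 4 at 0.209 CPM. Ncoa2, a coactivator of nuclear receptors, went from 345 ± 27.5 CPM in fed to 558 ± 42.8 CPM in fasted libraries (log2 fold change 0.69, SE 0.11, FDR = 0.00490). Among the abundant repressed genes, the imprinted zinc finger gene Plagl1 fell from 473 ± 58.2 CPM in fed to 277 ± 34.9 CPM in fasted libraries (log2 fold change -0.77, SE 0.13, FDR = 0.00663), and Rasgrp1, a Ras activator, from 321 ± 29.5 CPM in fed to 180.0 ± 11.99 CPM in fasted libraries (log2 fold change -0.83, SE 0.13, FDR = 0.00414). Baiap3, a priming factor for dense core vesicles, had the most reads of the repressed genes, at 923, 1213 and 931 CPM in fed and 687, 732, 793 and 667 CPM in fasted libraries. The groups did not overlap, but its change was close to the size threshold (log2 fold change -0.51, SE 0.13, FDR = 0.0425) and the call held in none of the 7 fits with a library removed. All other genes of this paragraph stood in those fits.

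Chromatin accessibility at the start sites of these genes was read from ATAC-seq of sorted AgRP nuclei, which came from pools of 4 mice of the same model in 2 fed and 2 fasted libraries of 8263234 to 15745558 reads counted in peaks. Peaks within 1 kb of a start site in the GENCODE M21 annotation were found for 347 of the 378 induced and 131 of the 143 repressed genes. Over 16100 such peaks of all genes tested, 4.44% were called higher and 4.26% lower in fasted nuclei, and the median log2 fold change was -0.21. At induced genes 62 of 507 peaks were called higher (12.2%) and 9 lower (1.78%), with a median of -0.07. At repressed genes 5 of 183 were called higher (2.73%) and 24 lower (13.1%), with a median of -0.35. Across scalings, peak filters, left-out libraries and a 200 base window, the median at induced genes lay between -0.12 and 0.00, and at repressed genes between -0.40 and -0.26.

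**Figure D5:**
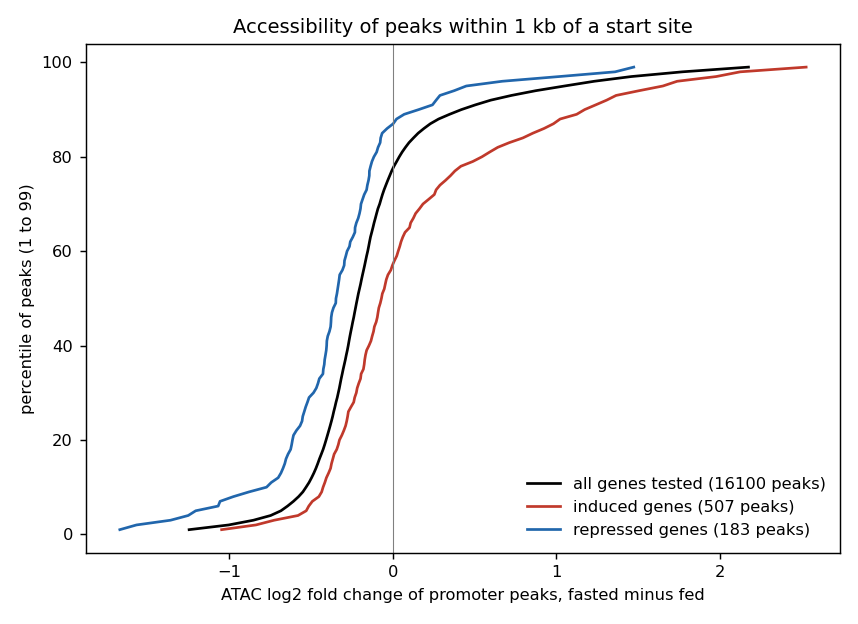
Percentile (y axis, 1 to 99) of the log2 fold change in ATAC signal (x axis, fasted minus fed) of peaks within 1 kb of a start site, for all genes tested (black), induced genes (red) and repressed genes (blue). The red line lies to the right of the black one and the blue line to its left, with medians of -0.07 (red), -0.21 (black) and -0.35 (blue).

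The peaks of single genes differed. None of the 10 peaks at the 10 induced ER chaperones and folding enzymes was called, and their log2 fold changes ran from -0.27 to 0.20. At Edem2 a peak inside the gene, near the annotated start of another transcript (chr2:155715219-155715764), rose from 0.378 and 2.27 CPM in fed to 18.9 and 15.02 CPM in fasted nuclei (log2 fold change 3.44, SE 0.42, edgeR FDR = 2.99e-05), while the peak at its first exon was not called (0.38, FDR = 0.252). An Rpn1 peak (chr6:88101948-88102426) showed the same, from 2.90 and 3.00 to 12.9 and 12.6 CPM (2.11, FDR = 0.000255). Both peaks of Cdkn1a were called higher (1.33, FDR = 0.00177 and 1.09, FDR = 0.00119), as were both of Mt2 (2.01, FDR = 0.000186 and 1.15, FDR = 0.0127). One peak each was called higher at Kcnab1 (1.68, FDR = 0.00013), Nts (2.24, FDR = 0.0056), Vgf (1.19, FDR = 0.00355), Fgf7 (1.04, FDR = 0.00327), Angptl4 (2.00, FDR = 0.0173), Ghr (1.72, FDR = 0.0346) and Hcrtr2 (1.13, FDR = 0.0351). Sphk1 (1.62, FDR = 0.000538) and Lyve1 (0.91, FDR = 0.0198), among the largest increases in RNA, were called higher too. Lower peaks stood at the repressed Bhlhe40 (-0.65, FDR = 0.000309), Per3 (-0.53, FDR = 0.0211), Irf9 (-0.70, FDR = 0.0223), Baiap3 (-0.67, FDR = 0.0192) and Plxna3 (-0.62, FDR = 0.0497). Peak and RNA went opposite ways at Creb3l2, whose RNA rose and whose 2 peaks were lower (-0.98, FDR = 0.0256 and -0.51, FDR = 0.00859), at Cacna1s (-0.84, FDR = 0.0309) and at Slc17a8 (2.40, FDR = 0.000672). No peak was called within 1 kb of a start site of Agrp, Npy or Socs3.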

How the data were processed

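RNA from affinity-purified tagged ribosomes was measured in 3 fed and 4 fasted AgRP neuron libraries. The authors aligned reads with HISAT2 and counted them with featureCounts of Subread, over gene models of mm10 modified to reduce overlapping transcripts, and deposited raw counts of reads per gene. For ATAC-seq they used Bowtie2, MACS2 and bedtools and deposited counts per peak. Tool versions are not given in the sources used here. The libraries do not mark the strand, so that reads of a gene and of an overlapping or antisense gene cannot be told apart. Reads per library ranged from 25581041 to 49641033, and 6 count columns of POMC neuron libraries were not used.

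Genes with a mean over 1 CPM were tested with edgeR 4.0.16 (R 4.3.3; glmQLFit and glmQLFTest, TMM scaling) in 1 model with the 4 libraries of fasted, leptin-treated mice, 11 libraries in all, which share the estimate of the spread. Unless another fit is named beside it (the replicate block, a library left out, peaks), an FDR comes from that fit with Benjamini-Hochberg adjustment over all genes tested. Calls needed an FDR below 0.05 and a change of more than 0.5 on the log2 scale. Peaks were tested in the same way over 6 ATAC libraries. Motifs were read from RefSeq promoters, and gene positions from GENCODE M21 on GRCm38. The scripts were tested on simulated counts. ER retrieval signals in proteins were not analysed here.

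Fed and fasted samples with the same replicate number deviated together: the correlation of their deviations from the group means was 0.706 to 0.749 in 3 fed and fasted pairs, against -0.585 to 0.369 in the 9 pairs with other numbers. Pairs with a leptin library, which the block also uses, separated less. Those with the same number ran from 0.536 (fasted 2 with leptin 2) to 0.814. Those with other numbers reached 0.642 (fed 3 with leptin 2). The labels do not say what a number stands for, so the pairing comes from the data, and counts and calls with the number as a block are given where a call changed or a count moved by more than 1.5 times. Alternatives were DESeq2 1.42.0, other scalings, filters and sets of libraries.

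The genes named are the 15 largest non-overlapping changes in each direction, the 10 called genes with the highest mean CPM in each direction, up to 6 called members of a list in each direction and the uncalled members on which its role turns, and genes named by the study, of which a selection is described. For the ER chaperone, coat and glucocorticoid lists all called members are given. The comparison, the lists and the genes were chosen with earlier results of these data known.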

Additional observations from a re-analysis of the deposited data

Results flagged for a closer look

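In 7 of 132 genes checked, 1 of the 4 fasted libraries lay far from the other 3 (Dixon's test, for which chance alone gives about 1 gene in 20). Fasted replicate 4 was the high library for Slc1a2, at 27272.9 CPM, and for Efnb3, at 234.096 CPM, and the low one for Creld2, at 13.4584 CPM. It is also one of the 2 libraries with the highest sum of astrocyte markers, most of which was Slc1a2 itself. The part of astrocyte RNA in these values was not tested. Fasted replicate 2 was the low library for Ghsr, at 234.451 CPM, and the high one for Slc17a6, the vesicular glutamate transporter of other hypothalamic neurons, at 281.756 CPM, and for Mrap2, at 27.2956 CPM. Fasted replicate 3 held the highest Fkbp5, at 235.371 CPM.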

How the results depend on the processing

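With the replicate number as a block, 590 genes were induced and 340 repressed, and with the 3 fed and fasted pairs alone and the same block 591 and 356. Scaling by library size only gave 148 and 90. Leaving out 1 library at a time, without or with the block, gave 202 to 605 induced and 68 to 524 repressed genes. Leaving out every library of replicate number 4, chosen after seeing the data, gave 305 repressed genes. DESeq2, its size factors in edgeR, the older robust fit, the 7 libraries alone and no filter stayed within 1.5 times of both counts. The cause of these differences was not tested. Of 110 called genes among the 132 checked, 56 kept their call in all 7 fits without 1 library. Over all alternatives and those genes, 2634 values kept their side of the thresholds, 331 lost the call and 71 gained one. The sign turned in 21 values of 5 uncalled genes (Eif2ak3, Gad1, Slc1a2, Slc32a1 and Stat3) and in none of a called gene. The replicate block changed the call of Ramp1, Agrp, Npy, Scg2, Lepr, Ghsr and Calr among the genes checked. Without all number 4 libraries, the calls of Mt2, Fkbp14, Lman1, Tmed2, Creb3l1, Hspb8, Slc17a8, Trpc7 and Cirbp were lost. Their edgeR FDR then ran from 0.0554 (Cirbp) to 0.110 (Tmed2). Kcnc2 fell under the size threshold in that fit (log2 fold change 0.46). The search for ER retrieval signals was not run. Genes near 1 CPM rest on the fewest reads.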

Other observations

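A few called genes outside the lists were picked out after their values were seen. The cold-inducible RNA-binding proteins Rbm3 and Cirbp both rose. Rbm3 was at 2.48, 4.49 and 4.09 CPM in fed and 11.4, 22.9, 28.9 and 13.7 CPM in fasted libraries (log2 fold change 2.39, SE 0.43, edgeR FDR = 0.00916), with all fasted libraries above all fed ones, and its call was lost without fed replicate 1 (FDR = 0.0540). Cirbp rose by 0.64 (SE 0.15, edgeR FDR = 0.0291), its call was lost in 4 of the 7 fits without 1 library (FDR up to 0.141), and 1 of its 4 ATAC peaks near a start site was called higher (1.26, FDR = 0.0157).

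Both Gch1, which makes the first step of tetrahydrobiopterin synthesis, and Pts, which makes the second, fell. Gch1 went from 43.6 ± 6.01 CPM in fed to 26.1 ± 1.65 CPM in fasted libraries (-0.74, SE 0.14, edgeR FDR = 0.0105) and Pts from 17.2 ± 1.66 to 10.8 ± 1.49 CPM (-0.67, SE 0.15, edgeR FDR = 0.0247), though the call of Pts was lost in 5 of the 7 fits without 1 library (FDR up to 0.0980). Mrap2, an accessory protein of melanocortin and ghrelin receptors, fell from 39.7 ± 2.28 to 25.9 ± 0.95 CPM (-0.62, SE 0.09, edgeR FDR = 0.00259). Gclc, the catalytic subunit of the enzyme that limits glutathione synthesis, rose from 77.5 ± 5.84 to 116 ± 10.4 CPM (0.58, SE 0.10, edgeR FDR = 0.00617), while its called ATAC peak near the start site was lower in fasted nuclei (-0.53, FDR = 0.0450).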
